A study of Mus musculus with 12 samples.

Results

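The keratin-associated protein genes are a family of small genes that encode the matrix proteins of the hair shaft. Mouse symbols that begin with Krtap and a subfamily number were taken from the gene column of the count tables, and a total of at least 10 counts over the 12 libraries was required. Of 52 such symbols among 24062 genes, 51 met the minimum. The symbol left out, Krtap13, had 7 counts in all, 6 of them in pre-MCS-01 library 2 and 1 in DSCG library 2. The lowest totals that met the minimum were 566 counts for Krtap27-1, 586 for Krtap4-13 and 840 for Krtap9-5, so no member lay close to it. All 51 members passed the filter on low counts and were among the 16267 genes tested.

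The RNA came from skin wounds on the backs of C57BL/6 mice made diabetic with streptozotocin, a toxin of the insulin-producing beta cells, with 1 mouse per library. Each of the 4 treatment labels had 3 libraries, and these labels read pre-MCS-01 and post-MCS-01, DSCG, and blank. MCS-01 is a mast cell stabilizer known here by its code name, and DSCG commonly stands for disodium cromoglycate, which is also used to stabilize mast cells. The labels do not say what pre and post refer to, what blank contained, or any dose, time after wounding or batch. All groups share the strain and the diabetic state, and a group of mice without diabetes or without a wound was not analysed here.

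As background, a hair shaft is built from hair keratin filaments that lie in a matrix of keratin-associated proteins. The matrix proteins are cross-linked to the keratins and to each other, largely through disulfide bonds between cysteines, and this gives the hair its strength and shape. They are made in the cortex and cuticle of the shaft while a hair follicle is in its growing phase, anagen, and not while it rests. The family is divided by composition into high-sulfur proteins and ultrahigh-sulfur proteins, both rich in cysteine, and high glycine-tyrosine proteins. Human members of subfamilies 5 and 10 are found in the hair cuticle, and human members of subfamilies 4 and 9 in the cortex.

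By subfamily number, 19 members were high-sulfur, 17 were ultrahigh-sulfur and 13 were high glycine-tyrosine. The remaining 2, Krtap31-1 and Krtap31-2, were given no class. In the GRCm38 annotation (mm10) the members lay in 4 clusters. Chromosome 16 held 21 of them between positions 88610705 and 89571183, a span of 960 kb, with all 13 high glycine-tyrosine genes and 8 high-sulfur genes. Chromosome 11 held 22 members between 99550130 and 99993994, a span of 444 kb, with 12 ultrahigh-sulfur genes, 8 high-sulfur genes and both genes without a class. The 5 members of subfamily 5 lay on chromosome 7 between 142174535 and 142304594, and the 3 members of subfamilies 10 and 12 on chromosome 10 between 77720599 and 77837252. Of the 51 genes, 46 had a single exon. The median exon length was 879 bases, against 4157 bases for the 95.4% of genes tested that had an annotated length.

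The coding sequences largely followed the class names. Cysteine codons made up a median of 37.7% of codons in ultrahigh-sulfur genes, 20.2% in high-sulfur genes and 8.05% in high glycine-tyrosine genes. Glycine and tyrosine codons together made up a median of 62.9% in the high glycine-tyrosine class, 7.45% in the high-sulfur class and 4.79% in the ultrahigh-sulfur class. Krtap16-3 stood apart from its number, since it is high-sulfur by subfamily but had 59.3% glycine and tyrosine codons and 8.14% cysteine codons. Krtap15, also high-sulfur by number, had 4% cysteine codons. Krtap7-1 had the lowest glycine and tyrosine content of its class, 29.9%. Among the ultrahigh-sulfur genes, Krtap5-2, Krtap5-3 and Krtap17-1 were rich in glycine as well as cysteine.

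**Figure D1:**
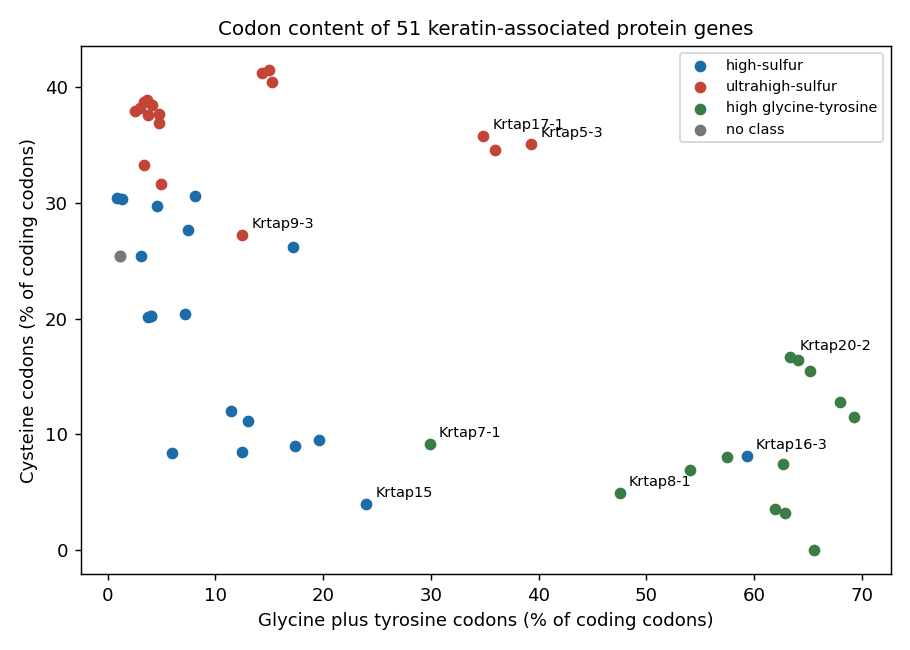
Glycine plus tyrosine codons (x axis, percent of codons) against cysteine codons (y axis, percent of codons), 1 point per member, coloured by class from the subfamily number. The high glycine-tyrosine genes lie toward the lower right with a median of 62.9% glycine and tyrosine codons, and Krtap16-3, a high-sulfur gene by number, lies among them at 59.3%.

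The promoters of the family shared a feature that the choice of genes had not used. RefSeq promoters (GRCm38.p6) were matched for 46 of the 51 members, and the motif TATAAA, the core of the TATA box that positions transcription initiation, was looked for on both strands. It was found in the 50 bases before the start of 30 of the 46 promoters (65.2%), against 3.78% of 27025 promoters. On the strand of the gene alone it was in the same number, 30, against 2.88% of all promoters. In those 30 the first base of the motif lay 27 to 49 bases before the start, with a median of 31. Over 250 bases it was in 80.4% of the members' promoters and in 13% of all. The Lef1/Tcf motif, searched as CTTTGAA or CTTTGAT, was in 21.7% of the members' promoters and in 7.67% of all. The motif CCAAT was in 37% of the members' promoters and in 34.5% of all. The Hox13 motifs CTCGTAAA and CCAATAAA together were in 2.17% and 1.22%. Neighbouring members are related by duplication, so their promoters are not independent, and a match describes letters only.

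The 100 bases before the start are shown for abundant members of each class, and for Krtap5-2 and Krtap20-2, whose levels departed from those of the family. They are also shown for Krtap14, which lacked the exact letters TATAAA but holds tatataag, a stretch the search did not count. They are written 5′ to 3′ on the strand of the gene, from RefSeq, build GRCm38.p6, with TATAAA in capitals. In Krtap8-1 the capitals ATTGG mark CCAAT read on the other strand. The positions are chr16:89571184-89571283 (minus strand) for Krtap11-1, chr11:99566631-99566730 (minus) for Krtap3-1, chr16:88826146-88826245 (minus) for Krtap14, chr11:99644090-99644189 (minus) for Krtap4-7, chr7:142176006-142176105 (minus) for Krtap5-2, chr16:89487953-89488052 (minus) for Krtap8-1, chr16:89010760-89010859 (minus) for Krtap22-2 and chr16:89205761-89205860 (plus) for Krtap20-2.
Krtap11-1: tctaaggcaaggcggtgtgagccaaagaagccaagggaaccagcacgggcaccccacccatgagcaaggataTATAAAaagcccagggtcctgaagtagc
Krtap3-1: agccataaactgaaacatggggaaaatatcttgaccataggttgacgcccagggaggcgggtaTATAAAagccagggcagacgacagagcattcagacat
Krtap14: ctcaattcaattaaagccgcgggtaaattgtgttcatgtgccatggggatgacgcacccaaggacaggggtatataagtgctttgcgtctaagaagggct
Krtap4-7: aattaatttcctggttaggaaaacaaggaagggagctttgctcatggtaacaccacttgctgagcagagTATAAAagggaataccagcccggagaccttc
Krtap5-2: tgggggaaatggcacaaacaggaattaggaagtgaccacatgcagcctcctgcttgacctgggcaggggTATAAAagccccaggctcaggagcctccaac
Krtap8-1: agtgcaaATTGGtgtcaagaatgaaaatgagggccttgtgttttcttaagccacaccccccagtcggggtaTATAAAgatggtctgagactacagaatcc
Krtap22-2: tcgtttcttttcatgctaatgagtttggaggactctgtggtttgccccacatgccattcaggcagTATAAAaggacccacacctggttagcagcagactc
Krtap20-2: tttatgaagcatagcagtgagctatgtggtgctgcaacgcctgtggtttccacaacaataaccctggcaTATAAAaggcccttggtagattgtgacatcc

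Depth was similar in 11 of the 12 libraries, at 37702643 to 50461867 gene counts, and lower in blank library 3, at 3835042. Levels are given as CPM, the counts of a gene relative to the TMM-adjusted size of its library, and 3 counts correspond to 0.0588 to 0.0852 CPM in the deep libraries and to 0.786 CPM in blank library 3. Floors and the intervals named counting intervals cover counting error only, and intervals of fold changes come from the spread between libraries in the fit. Pre-MCS-01 library 2, DSCG library 2 and blank library 3 were short of long transcripts, with the 3 lowest values of Spearman's rho across genes between exon length and deviation from the mean of the libraries (−0.39, −0.33 and −0.32, against −0.06 to 0.34 in the other 9).

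The summed level of the family differed widely, both between groups and within them. It was 1538, 12743 and 2303 CPM in the 3 pre-MCS-01 libraries. It was 17.3, 0.264 and 2.52 CPM in the post-MCS-01 libraries. DSCG libraries had 170, 9403 and 5771 CPM, and blank libraries 4139, 1561 and 1785 CPM. Every post-MCS-01 library therefore lay below every other library, and the lowest of those, DSCG library 1, was 9.83 times the highest post-MCS-01 library. The group means were 5528 ± 6260 CPM in pre-MCS-01, 6.70 ± 9.26 CPM in post-MCS-01, 5115 ± 4651 CPM in DSCG and 2495 ± 1428 CPM in blank (SD, n = 3 each). Within groups the highest library was 8.28 times the lowest in pre-MCS-01, 65.6 times in post-MCS-01, 55.3 times in DSCG and 2.65 times in blank.

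Expressed as counts, the family took 610534 counts in pre-MCS-01, 808 in post-MCS-01, 707162 in DSCG and 293014 in blank. All 51 members had at least 1 count in each pre-MCS-01 and DSCG library and in blank libraries 1 and 2, and 48 had one in the shallow blank library 3. In the post-MCS-01 libraries 42, 8 and 32 members had a count. Summed over that group, 7 members had none, 12 had 1 to 3 counts and 32 had more than 3, with a median of 12 and a maximum of 64 for Krtap8-1. For 47 of 51 members every post-MCS-01 library was below every other library, the exceptions being Krtap9-5, Krtap20-2, Krtap27-1 and Krtap31-2. In whole-tissue RNA, fewer hair-forming cells and less of the RNA per cell cannot be told apart.

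**Figure D2:**
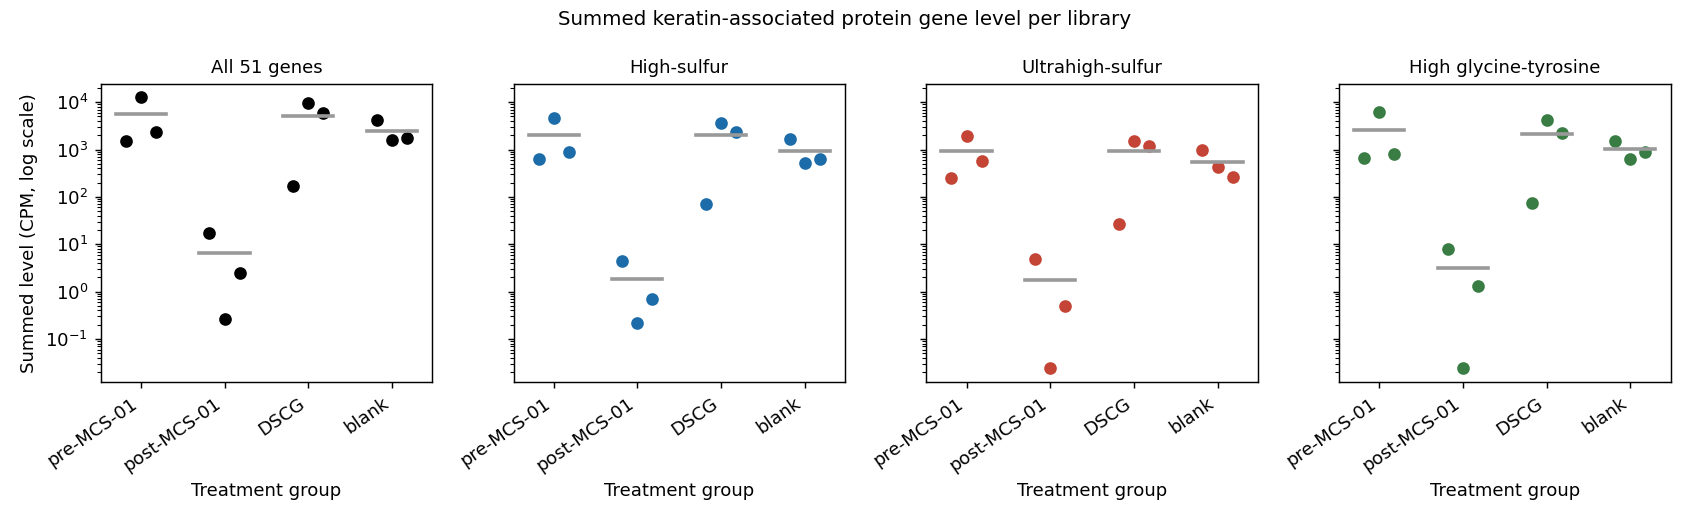
Summed level in CPM (log axis) of all members and of each class in the 12 libraries, with points for replicates 1 to 3 from left to right and a grey bar for the group mean. All members together range from 0.264 to 17.3 CPM in post-MCS-01 and from 170 to 12743 CPM in the other 3 groups, and in each class the 3 post-MCS-01 libraries are the lowest of the 12.

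The libraries that were high or low were so for nearly the whole family. Pre-MCS-01 library 2 was the highest of all 12 libraries for 40 members, DSCG library 2 for 9, and DSCG library 3 and blank library 2 for 1 each. Pre-MCS-01 library 2 and DSCG library 2 were short of long transcripts, and the members are short genes. Blank library 3, also short of long transcripts, was the highest for 0 members. The part of transcript length in these levels was not tested. Among the 9 libraries outside post-MCS-01, DSCG library 1 was the lowest for 47 members. Among the 44 members with a count in post-MCS-01, library 1 was the highest of that group for 42 and library 2 for 2. Those 2, Krtap12-1 and Krtap26-1, had 1 count each in libraries 2 and 3, so their order came from library size alone. For Krtap10-4 and Krtap11-1, libraries 1 and 3 also had equal counts.

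**Figure D3:**
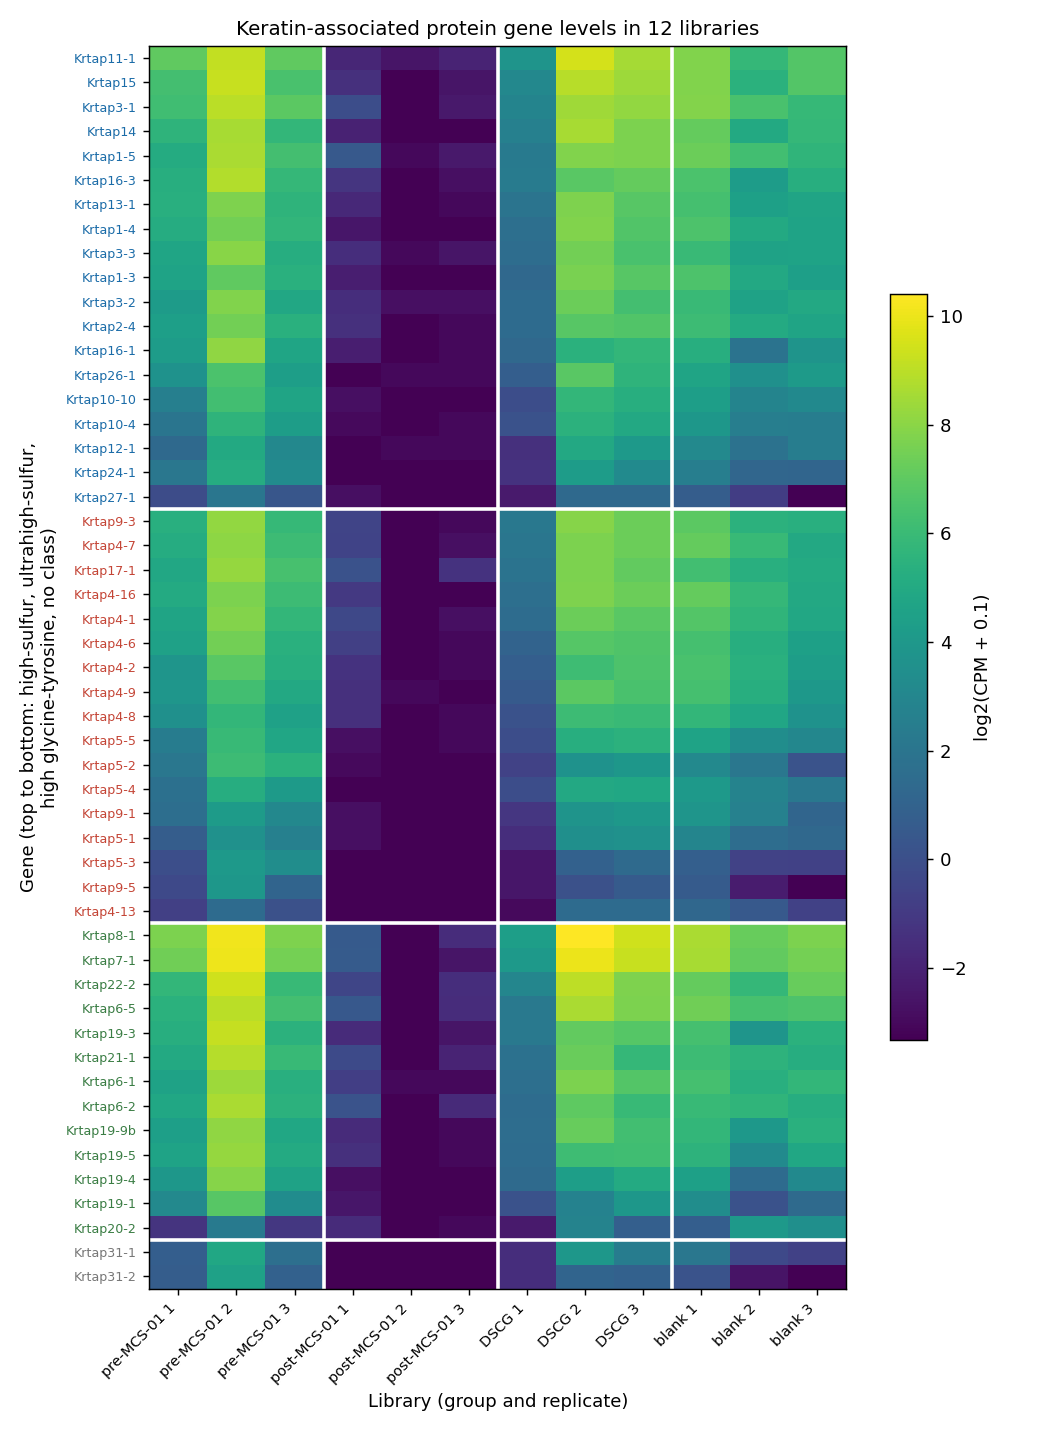
Levels of the 51 members (rows, grouped by class) in the 12 libraries (columns, grouped by treatment), as log2(CPM + 0.1). The 3 post-MCS-01 columns are at the low end of the scale for nearly every member, and DSCG library 1 is the lowest of the other 9 columns for 47 members.

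Among the high-sulfur genes, Krtap11-1 had the highest mean CPM over the libraries. It had 133, 562 and 132 CPM in pre-MCS-01 libraries, 0.176, 0.072 and 0.161 CPM in post-MCS-01 libraries, 13.5, 736 and 381 CPM in DSCG libraries and 218, 55.9 and 107 CPM in blank libraries. Its low level was nearly even in the 3 post-MCS-01 libraries, from 7, 3 and 7 counts. Krtap3-1 had 71.7, 512 and 121 CPM in pre-MCS-01 wounds, 0.831, 0 and 0.0918 CPM in post-MCS-01, 7.30, 342 and 285 CPM in DSCG and 229, 86.1 and 58.7 CPM in blank. Krtap15 had 79.8, 607 and 88.8 CPM in pre-MCS-01 wounds, 0.277, 0 and 0.0689 CPM in post-MCS-01, 8.31, 487 and 330 CPM in DSCG and 219, 42.8 and 106 CPM in blank. In all 3 genes the post-MCS-01 libraries did not overlap with any other group, while pre-MCS-01, DSCG and blank overlapped with each other. Krtap14 overlaps Krtap15 on the opposite strand in the annotation, and whether the counting used strand is not given in the sources used here, so reads of the pair may not be fully separated.

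Krtap9-3 had the highest mean CPM of the ultrahigh-sulfur genes, below that of the 3 high-sulfur genes above. It had 40.0, 290 and 57.7 CPM in pre-MCS-01 wounds, 0.605, 0 and 0.023 CPM in post-MCS-01, 4.48, 237 and 161 CPM in DSCG and 124, 44.4 and 40.9 CPM in blank. Krtap4-7 had 35.8, 266 and 67.6 CPM in pre-MCS-01 wounds, 0.579, 0 and 0.0459 CPM in post-MCS-01, 4.00, 210 and 161 CPM in DSCG and 144, 59.7 and 31.4 CPM in blank. In both, the 3 post-MCS-01 values lay below all 9 others. Krtap17-1, the only member of its subfamily here, had 29.4, 298 and 83.2 CPM in pre-MCS-01, against 1.01, 0 and 0.298 CPM in post-MCS-01, where its 53 counts were the most of this class. Krtap5-3, Krtap5-4, Krtap4-13 and Krtap9-5 were without a count in all 3 post-MCS-01 libraries. Of these, Krtap5-4 had 3.28, 36.9 and 17.4 CPM in pre-MCS-01 libraries, 0.861, 30.7 and 28.3 CPM in DSCG and 17.1, 6.80 and 4.45 CPM in blank.

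The high glycine-tyrosine genes are short, with a median exon length of 534 bases, and held the highest levels per length. Averaged over the 12 libraries, Krtap8-1 had 628 CPM per kb of exon, Krtap7-1 509 and Krtap22-2 430, against 236 for Krtap3-1 and 193 for Krtap11-1. Krtap4-13 was the lowest member at 1.39, but 81.3% of the 50-base windows in its exons also occurred in another gene. Krtap8-1 had 203, 1111 and 215 CPM in pre-MCS-01 wounds, 1.36, 0 and 0.230 CPM in post-MCS-01, 20.4, 1346 and 673 CPM in DSCG and 399, 145 and 210 CPM in blank. Krtap22-2 had 54.5, 686 and 59.8 CPM in pre-MCS-01 wounds, 0.630, 0 and 0.252 CPM in post-MCS-01, 7.85, 526 and 210 CPM in DSCG and 140, 55.7 and 145 CPM in blank. Both had all post-MCS-01 libraries below all others, with no count in post-MCS-01 library 2.

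Krtap20-2 was the member whose pattern departed furthest from the family. It had 0.323, 4.69 and 0.368 CPM in pre-MCS-01 wounds, 0.227, 0 and 0.023 CPM in post-MCS-01, 0.101, 6.86 and 1.67 CPM in DSCG and 1.63, 16.5 and 11.3 CPM in blank. Blank libraries 2 and 3 were the highest of the 12, and post-MCS-01 library 1 lay above DSCG library 1, so those groups overlapped. Its promoter has TATAAA 31 bases before the start, as do those of Krtap4-7 and Krtap5-2 in the sequences given above.

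Pre-MCS-01 and post-MCS-01 are the 2 labels that name MCS-01, and nearly the whole family was higher in pre-MCS-01 wounds. Of 51 members, 43 were higher in pre-MCS-01 at an adjusted p under 0.05, against 0.805% of all genes tested. They were 17 of 19 high-sulfur, 15 of 17 ultrahigh-sulfur, 11 of 13 high glycine-tyrosine and neither of the genes without a class. The 3 libraries of the groups did not overlap for any of the 51 members, against 10.7% of all genes that were higher without overlap. The median log2 fold change of the members was 9.92, or 9.59 with the 7 genes without a post-MCS-01 count at their lower bound, and that of all genes was 0.03. By class the medians were 10.49 for high-sulfur, 9.05 for ultrahigh-sulfur and 9.92 for high glycine-tyrosine genes.

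Krtap8-1 was higher in pre-MCS-01 by a log2 fold change of 9.92 ± 1.80 (SE, adjusted p = 0.036 by edgeR). For Krtap3-1 it was 9.59 ± 1.75 (adjusted p = 0.0363), for Krtap22-2 9.82 ± 1.87 (0.0383) and for Krtap17-1 8.30 ± 1.64 (0.0449). Where post-MCS-01 held few counts, the ratio of scaled levels was imprecise. Krtap1-4, with 10009 counts against 3, had a ratio of 3506 (95% counting interval 1199 to 17005), and Krtap5-2, with 4415 against 1, had a ratio of 4640 (832 to 183310). Krtap5-4 was at least 766-fold higher and Krtap24-1 at least 655-fold higher, with the summed post-MCS-01 counts set to the floor of 3. The 8 members that did not pass included the abundant Krtap6-5 (8.73 ± 1.82, adjusted p = 0.0545) and Krtap1-5 (adjusted p = 0.0534) as well as Krtap20-2 (4.40 ± 1.72, adjusted p = 0.398). The count of 43 rested on the libraries in the fit. It was 0 without pre-MCS-01 library 2, when a single post-MCS-01 library of the 3 was left out, without DSCG library 3, without blank library 3, or by limma-voom. It was 13 without pre-MCS-01 library 3, 5 without DSCG library 2, 18 without blank library 1 and 2 without blank library 2. All 51 members kept a positive fold change in each of these fits, with medians of 8.31 without pre-MCS-01 library 2 and 11.87 without post-MCS-01 library 1.

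Post-MCS-01 and DSCG are 2 labels that each appear to name a mast cell stabilizer, though what post refers to is not given. Of 51 members, 39 were lower in post-MCS-01 at an adjusted p under 0.05, against 0.916% of all genes tested. They were 16 of 19 high-sulfur, 14 of 17 ultrahigh-sulfur and 9 of 13 high glycine-tyrosine genes. The groups did not overlap for 50 members, against 8.28% of all genes that were lower without overlap, and Krtap20-2 was the exception. The median log2 fold change was −9.45 for the members, −9.41 with genes at 0 at their bound, and −0.01 for all genes. By class the medians were −10.40 for high-sulfur, −9.01 for ultrahigh-sulfur and −9.22 for high glycine-tyrosine genes.

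Krtap8-1 was lower in post-MCS-01 by a log2 fold change of −10.33 ± 1.83 (adjusted p = 0.0323), and Krtap6-5 by −8.71 ± 1.82 (0.0497). Krtap9-3 had −9.34 ± 1.76 (0.0354). Krtap7-1, a high glycine-tyrosine gene with 1.41, 0 and 0.0689 CPM in post-MCS-01 against 17, 1037 and 600 CPM in DSCG, had −10.14 ± 1.90 (0.0353). Krtap26-1 had 2 counts in post-MCS-01 and 7697 in DSCG, which put it 3637 times higher in DSCG (95% counting interval 1006 to 30036). Of the 12 members that did not pass, Krtap21-1 (adjusted p = 0.0501) and Krtap1-5 (0.0506) were nearest to the threshold, and Krtap20-2 had −5.10 ± 1.73 (0.255). The count of 39 was 0 without DSCG library 2, without DSCG library 3, without blank library 3, when a single post-MCS-01 library of the 3 was left out, by limma-voom, or in a fit of these 6 libraries alone. It was 18 without pre-MCS-01 library 3 and 5 without blank library 2. The fold change stayed negative for all members tested in each of these fits, with medians of −8.81 without DSCG library 2 and −11.55 without post-MCS-01 library 1.

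No member passed the threshold between post-MCS-01 and blank, although the fold changes were large. All 51 were below 0, with a median log2 fold change of −8.67, −8.57 with genes at 0 at their bound, and −0.01 for all genes. The class medians were −8.89 for high-sulfur, −8.57 for ultrahigh-sulfur and −8.40 for high glycine-tyrosine genes. By edgeR, 0 of 51 members and 0% of all genes had an adjusted p under 0.05. All 51 members had an unadjusted p under 0.05, against 9.35% of all genes. DESeq2 gave 50 members and limma-voom 0, and edgeR without DSCG library 1 gave 44, with the filter on low counts removed 7, without DSCG library 3 1, and in a fit of these 2 groups alone 47. The groups did not overlap for 48 members, against 9.45% of all genes that were lower without overlap.

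The smallest adjusted p among the members was that of Krtap11-1, which had a log2 fold change of −9.83 ± 1.52 (adjusted p = 0.0692). Krtap14, with 0.151, 0 and 0 CPM in post-MCS-01 against 142, 31.9 and 55.8 CPM in blank, had −10.54 ± 1.91 (0.0729). Krtap15 had −10.04 ± 1.80 (0.0729) and Krtap8-1 −8.90 ± 1.74 (0.0787). Krtap1-4, with 3 counts in post-MCS-01 and 6510 in blank, was 2634 times higher in blank (95% counting interval 901 to 12777). Krtap5-4 was at least 491-fold lower in post-MCS-01. Krtap1-3, with 0.126, 0 and 0 CPM in post-MCS-01 against 92.7, 31.3 and 21.2 CPM in blank, had −10.14 ± 1.82 (0.0729).

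Pre-MCS-01 and blank did not differ past the threshold for any member. By edgeR 0 of 51 members and 0% of all genes passed, and 6 members had an unadjusted p under 0.05, against 7.24% of all genes. DESeq2 and limma-voom each gave 0. The median log2 fold change was 1.15 for the members, with 47 above 0, and 0.04 for all genes. Without pre-MCS-01 library 2 the median was −0.23, with 18 of 51 above 0, so its sign rested on that library. With pre-MCS-01 library 2, DSCG library 2 and blank library 3 left out it was −0.45, with 11 above 0.

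The lowest p in this comparison belonged to Krtap31-2, which had 1.57, 23.1 and 1.84 CPM in pre-MCS-01 against 1.02, 0.0624 and 0 CPM in blank, and a log2 fold change of 4.21 ± 1.43 (adjusted p = 0.658). It was the 1 member higher in pre-MCS-01 without overlap, against 8.41% of all genes. Krtap5-2 had 4.25, 68.0 and 42.6 CPM in pre-MCS-01 against 8.59, 4.18 and 1.05 CPM in blank, and a fold change of 2.94 ± 1.11 (0.669). Krtap19-4 had 15.5, 241 and 23.9 CPM in pre-MCS-01 against 21.9, 2.72 and 9.17 CPM in blank, and 3.03 ± 1.17 (0.669). Krtap5-3 and Krtap19-1 had 3.20 and 3.16. In all of these except Krtap31-2 the groups overlapped. Without pre-MCS-01 library 2 the fold changes were 1.85 for Krtap31-2, 0.79 for Krtap19-4 and 0.93 for Krtap19-1, and 2.24 for Krtap5-2 and 2.48 for Krtap5-3. Without blank library 1 they were 7.18 for Krtap31-2, 4.07 for Krtap19-4, 4.84 for Krtap19-1, 3.63 for Krtap5-2 and 4.03 for Krtap5-3.

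DSCG and blank did not differ past the threshold for any member either. By edgeR 0 of 51 members and 0% of all genes passed, 0 members had an unadjusted p under 0.05, against 1.03% of all genes, and DESeq2 and limma-voom each gave 0 past the threshold. The median log2 fold change was 0.86 for the members, with 50 above 0, and 0.00 for all genes. By limma-voom the median was −0.07, with 25 above 0. It was 0.32 by edgeR without DSCG library 2 and 1.42 without DSCG library 1. Krtap11-1 had a fold change of 1.57 ± 1.01 (95% interval −0.64 to 3.77, adjusted p = 0.999), which ran from 0.63 to 2.18 when 1 library was left out. Krtap20-2 was the 1 member below 0, at −1.75 ± 1.34.

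Pre-MCS-01 and DSCG were likewise not separated. By edgeR 0 of 51 members and 0% of all genes passed, 1 member had an unadjusted p under 0.05, against 2.36% of all genes, and DESeq2 and limma-voom each gave 0 past the threshold. The median log2 fold change was 0.14, with 30 members above 0, against 0.03 for all genes. The sign and size of the median rested on single libraries and on the tool. It was −1.20 without pre-MCS-01 library 2, with 6 members above 0, and −0.43 without DSCG library 1, with 14 above 0. It was 0.78 without DSCG library 2, with 49 above 0, 0.60 without pre-MCS-01 library 1, with 44 above 0, and 0.75 by limma-voom, with 50 above 0. Krtap8-1 had −0.42 ± 1.21 (95% interval −3.06 to 2.23) and Krtap31-2 2.67 ± 1.26 (−0.17 to 5.5), which was 0.30 without pre-MCS-01 library 2. Krtap9-5, with 0.721, 15.1 and 2.05 CPM in pre-MCS-01 against 0.076, 0.945 and 1.44 CPM in DSCG, had the lowest p, and its groups overlapped. Its fold change was 2.84, and 0.75 without pre-MCS-01 library 2.

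A joint test of the 4 groups gave 0 members and 0% of all genes at an adjusted p under 0.05 by edgeR. All 51 members had an unadjusted p under 0.05 in it, against 8.42% of all genes, and the likelihood ratio test of DESeq2 gave 49 members at an adjusted p under 0.05. Without DSCG library 1, edgeR gave 46. The comparisons share libraries, and post-MCS-01 enters 3 of them, so their counts are not independent of each other.

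**Figure D4:**
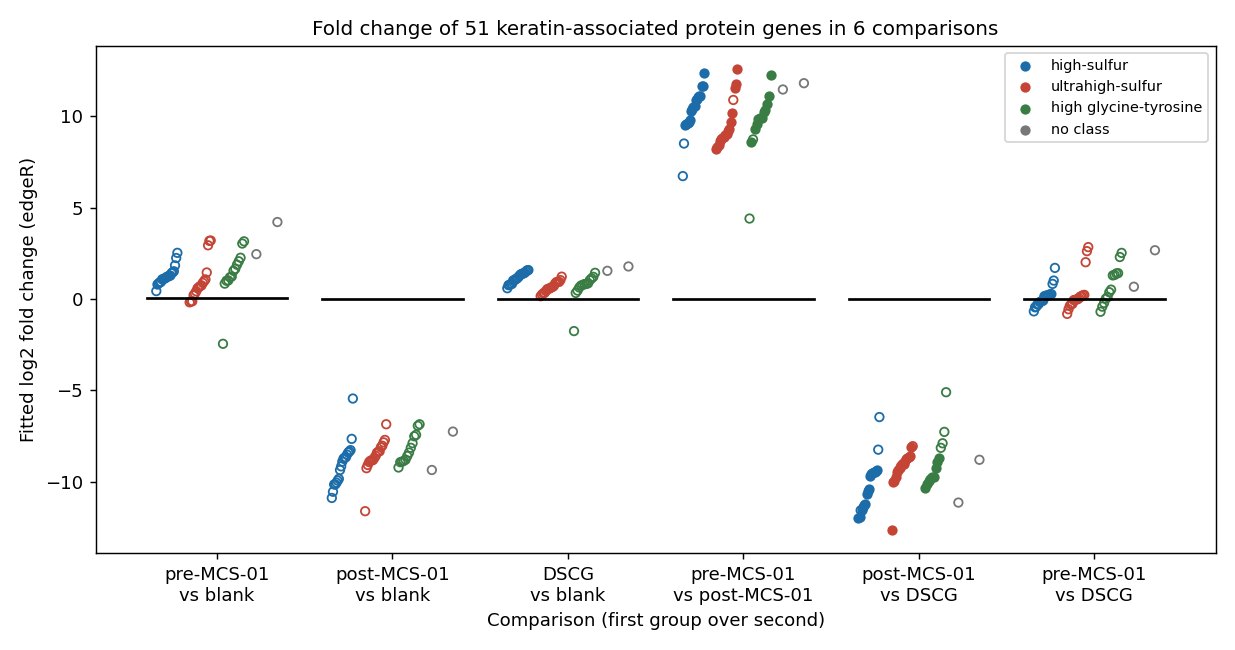
Log2 fold change of each member in the 6 pairs of groups, coloured by class, with filled points past an adjusted p of 0.05 and open points not past it, and a black line at the median of all genes tested. Members lie near 9.92 in pre-MCS-01 vs post-MCS-01 (43 filled) and near −9.45 in post-MCS-01 vs DSCG (39 filled), while the 3 pairs without post-MCS-01 have no filled point and medians of 1.15, 0.86 and 0.14.

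Within the family, the proportions of most members, though not of all, were more even than its total. Among the 9 libraries outside post-MCS-01, the highest total was 74.9 times the lowest. Each member's share of all family counts was taken in the 9 libraries outside post-MCS-01. Krtap9-3 had the most stable share, 2.28% to 2.99%, with a coefficient of variation of 9.26%. Krtap7-1 held 8.15% to 11.1% of family counts in every one of these libraries, a coefficient of variation of 11.6%, although its level spanned 17 to 1065 CPM. Krtap3-3 and Krtap3-2, high-sulfur genes of 1 subfamily on chromosome 11, had 11% and 12.5%.

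The 5 least stable shares were those of Krtap20-2, Krtap5-3, Krtap5-2, Krtap31-2 and Krtap9-5, with Krtap19-1 and Krtap19-4 next. Krtap20-2 had a coefficient of variation of 170%, with 1.06% of family counts in blank library 2, 0.631% in blank library 3 and 0.0160% to 0.0729% in the other 7. Krtap5-2 held 1.85% in pre-MCS-01 library 3 and 0.0587% to 0.533% elsewhere. Krtap5-3, a neighbour of it on chromosome 7, was also highest in pre-MCS-01 library 3, at 0.452%. Krtap19-4 held 1.01%, 1.89% and 1.04% in pre-MCS-01, 1.49%, 0.219% and 0.585% in DSCG and 0.528%, 0.175% and 0.514% in blank, so pre-MCS-01 and blank did not overlap in its share although they did in its level. This was not particular to Krtap19-4. Other members, among them Krtap19-1, Krtap5-2 and Krtap16-1, also had higher shares in pre-MCS-01 without overlap while their levels overlapped. In Krtap6-5 the blank shares were the higher ones without overlap, at 4.09%, 5.39% and 5.39% against 2.86%, 3.98% and 3.35% in pre-MCS-01. The genes with the least stable shares were picked by their spread, so the values are a description.

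The balance of the classes differed among libraries. High glycine-tyrosine genes held 43.3%, 47.8% and 35.8% of family counts in pre-MCS-01, 43.0%, 44.5% and 38.5% in DSCG and 36.9%, 39.6% and 50.6% in blank. Ultrahigh-sulfur genes held 16.1%, 15.2% and 25.2% in pre-MCS-01, 15.9%, 16.0% and 20.8% in DSCG and 23.4%, 27.5% and 14.4% in blank. The groups overlapped in both classes. The 3 libraries with the highest share of the short high glycine-tyrosine genes were pre-MCS-01 library 2, DSCG library 2 and blank library 3, the same 3 that were short of long transcripts. The part of transcript length in these shares was not tested.

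**Figure D5:**
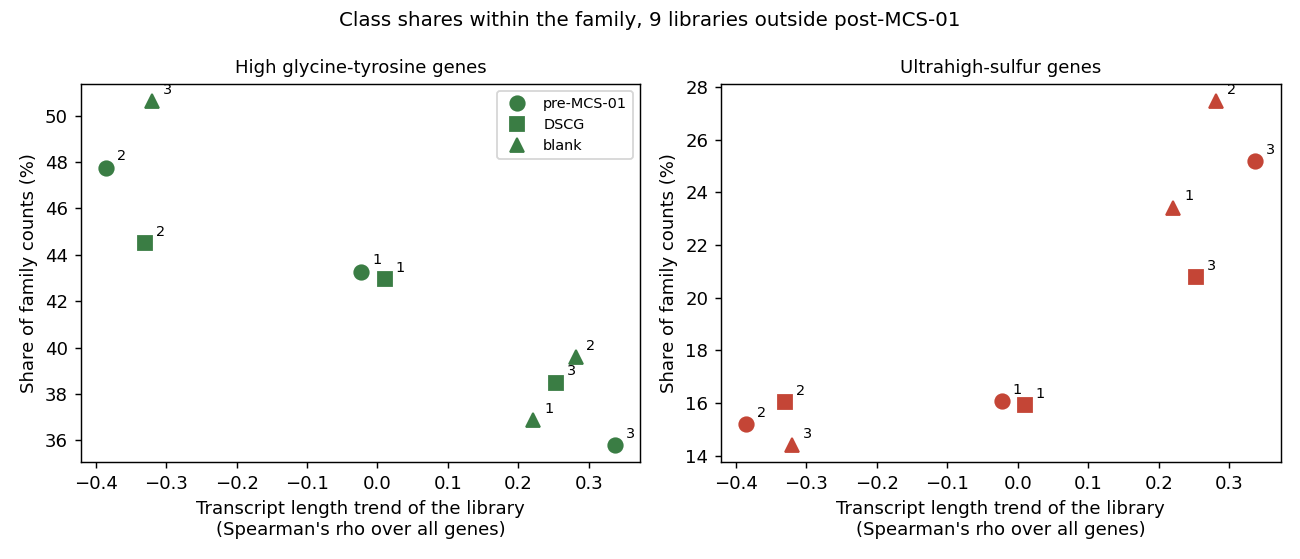
Share of family counts (percent) held by high glycine-tyrosine genes and by ultrahigh-sulfur genes in the 9 libraries outside post-MCS-01, against the transcript length trend of the library (Spearman's rho across genes), with the replicate number beside each point. The 3 libraries with the lowest rho have the highest high glycine-tyrosine shares, 44.5% to 50.6%, and ultrahigh-sulfur shares of 14.4% to 16.0%. Similar ultrahigh-sulfur shares occur in DSCG library 1 (15.9%, rho 0.01) and pre-MCS-01 library 1 (16.1%, rho −0.02).

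The hair keratins, which form the filaments that the keratin-associated proteins embed, differed between the same groups. All 9 type I and 5 of 6 type II hair keratins tested were called higher in pre-MCS-01 against post-MCS-01, beside 0.805% of all genes tested. The same numbers were called lower in post-MCS-01 against DSCG, beside 0.916% of all genes. In post-MCS-01 against blank, 0 of these 15 passed by edgeR and all had an unadjusted p under 0.05, beside 0% and 9.35% of all genes. The summed level of hair keratins was 1121, 5322 and 1443 CPM in pre-MCS-01 wounds, 11.4, 8.42 and 11.2 CPM in post-MCS-01, 154, 4744 and 3122 CPM in DSCG and 1938, 707 and 843 CPM in blank. The ratio of keratin-associated protein to hair keratin CPM was 1.37, 2.39 and 1.60 in pre-MCS-01, 1.52, 0.0313 and 0.224 in post-MCS-01, 1.11, 1.98 and 1.85 in DSCG and 2.14, 2.21 and 2.12 in blank. This ratio of sums was lower in post-MCS-01 libraries 2 and 3 than in the other 10, and 3 keratins made up much of the post-MCS-01 hair keratin sum, Krt84 with 555 counts over that group, Krt35 with 239 and Krt32 with 222. Taken gene by gene, in pre-MCS-01 against post-MCS-01 the median log2 fold change was 10.25 for type I and 9.19 for type II hair keratins, beside 9.92 for the members. In post-MCS-01 against DSCG the medians were −9.39 and −8.87, beside −9.45, and against blank −8.84 and −7.53, beside −8.67.

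Genes of the inner root sheath, the layer that moulds the growing hair, had the same direction. All 10 listed, including Krt25, Krt71 and Tchh, were called higher in pre-MCS-01 against post-MCS-01 and called lower in post-MCS-01 against DSCG. The shares of all genes called so were 0.805% and 0.916%. Padi3, which converts arginine to citrulline in hair proteins, and S100a3, a calcium-binding protein of the hair cuticle, passed in both comparisons. Tgm3, a transglutaminase that also acts in the epidermis, had a log2 fold change of −0.02 in pre-MCS-01 against post-MCS-01.

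Of 6 listed transcription factors of hair formation, 3 were called lower in post-MCS-01 against DSCG by edgeR, beside 0.916% of all genes. In pre-MCS-01 against post-MCS-01, 0 of 6 passed by edgeR, beside 0.805% of all genes called higher. There 4 had an unadjusted p under 0.05, beside 1663 of all 16267 genes. Hoxc13, required for hair keratin and keratin-associated protein expression in mice, had 12.1, 4.29 and 6.56 CPM in post-MCS-01 against 15.2, 109 and 178 CPM in DSCG, a log2 fold change of −3.72 ± 0.75 (adjusted p = 0.0431). Msx2 had −3.80 ± 0.80 (0.0497) and Dlx3 −3.46 ± 0.69 (0.0414). Lef1, a mediator of Wnt signals in the hair matrix, had −3.54 (0.0686). Foxn1, whose loss causes the nude phenotype, had 17.4, 44.7 and 16.1 CPM in post-MCS-01 against 21.9, 69.6 and 75.5 CPM in DSCG and −1.10 ± 0.48 (0.417), and its groups overlapped. Gata3 had −0.88 and was detected at 80.3 to 283 CPM in every library.

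Markers of other cells were also compared. Melanocyte genes, which are active in pigmented growing follicles, summed to 161, 845 and 281 CPM in pre-MCS-01 wounds, 43.4, 12.8 and 52.8 CPM in post-MCS-01, 94.1, 120 and 382 CPM in DSCG and 199, 70.8 and 82.8 CPM in blank. None of the 6 passed the threshold by edgeR in any pair, and the post-MCS-01 libraries were below all others in sum. Their median log2 fold change was 3.73 in pre-MCS-01 against post-MCS-01 and −2.62 in post-MCS-01 against DSCG, and all 6 and 5 of them had an unadjusted p under 0.05. Of all 16267 genes, 1663 and 1846 had such a p in these pairs. The 4 epidermal markers summed to 29963 to 55317 CPM in pre-MCS-01, 21597 to 45331 in post-MCS-01, 16484 to 59287 in DSCG and 20719 to 37298 in blank, and Krt5, a keratin of basal keratinocytes, was at 4978 to 8526 CPM in all libraries. Macrophage markers summed to 179 to 361 CPM in pre-MCS-01, 405 to 676 in post-MCS-01, 277 to 512 in DSCG and 343 to 494 in blank. In pre-MCS-01 against post-MCS-01 the 3 tested had a median log2 fold change of −1.07 and a smallest adjusted p of 0.104 by edgeR. All 3 were lower without overlap, beside 1140 of 16267 genes, and had an unadjusted p under 0.05, beside 1663. In post-MCS-01 against DSCG the median of the 3 was 0.41, with 1 higher without overlap, beside 1161 genes. Wound keratinocyte genes (Krt6a, Krt6b, Krt16 and Krt17), keratins of activated epidermis at a wound, summed to 15159 to 18509 CPM in pre-MCS-01, 15131 to 26100 in post-MCS-01, 6465 to 20423 in DSCG and 9773 to 14144 in blank. None of the 4 passed the threshold in any pair by edgeR. In post-MCS-01 against blank their median log2 fold change was 1.19, with 3 of 4 higher without overlap and 2 with an unadjusted p under 0.05. Of all 16267 genes, 1451 were higher without overlap there and 9.35% had such a p. In pre-MCS-01 against blank the median of the 4 was 0.93, also with 3 of 4 higher without overlap and 0 with an unadjusted p under 0.05. The shares of all genes there were 8.41% and 7.24%. Listed genes of dermal fibroblasts, sebaceous glands and skeletal muscle had medians of −0.26, −0.17 and −0.78 in pre-MCS-01 against post-MCS-01 and 0.09, 0.18 and 0.28 in post-MCS-01 against DSCG, and none passed by edgeR in any pair. The part of these cell types in the levels of the keratin-associated protein genes was not tested.

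Shared sequence limits what can be said of single members. In 14 of 51 members, over 25% of the 50-base windows in their exons also occurred in another gene, with 81.3% in Krtap4-13 and 54.3% in Krtap5-1, and 15 members had none. Lines for reads that aligned to more than 1 place, which enter no gene count, made up 17.2% to 23.4% of the entries in each library. Reads from shared windows may therefore be missing from the counts of Krtap4-13, Krtap5-1 and the other members with near copies. The levels of these members may be understated.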

How the data were processed

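Whole-wound RNA from 12 mice was extracted with miRNeasy and prepared with TruSeq, per the labels' protocols. The deposited values are raw counts of reads for each gene symbol, made by the authors with FastQC, TopHat2, Bowtie2 and HTSeq on mm10, with limma also named, per the submitters' processing notes. Versions, strand setting and annotation are not given in the sources used here. The 5 summary lines were left out of library sizes.

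Members, gene lists and named genes were chosen with earlier results of these data known. Named genes are the most abundant of each class and, for each pair of groups, those with the largest fold change past the threshold or, failing that, the lowest p. Counts from the 12 libraries entered 1 edgeR 4.0.16 quasi-likelihood fit in R 4.3.3, with filterByExpr, TMM scaling and a mean per group. Adjusted p values are Benjamini-Hochberg over 16267 genes, two-sided, with a threshold of 0.05. Errors of log2 fold changes are SE worked back from the test, as the absolute fold change over the square root of its F statistic. The 95% intervals of fold changes use the same SE, so both hold no information beyond the fold change and its p. Errors of CPM are SD. Counting intervals are exact 95% binomial (Clopper-Pearson), and the floor was 3 counts. The fit had a biological coefficient of variation of 0.347. An exact permutation test of 3 libraries against 3 cannot go below 0.1, two-sided, so genes were tested only in the model. Each library is 1 mouse. Replicate numbers follow the order of accession and pair no samples.

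Alternatives were RLE or total-count scaling, no filter, DESeq2 1.42.0, limma-voom 3.58.1, fits of 2 groups, and fits without libraries. Coordinates, exon lengths, codons and window sharing came from GENCODE on GRCm38, and promoters from RefSeq. Tables were made in Python 3.11.15 with pandas 2.3.3.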

Additional observations from a re-analysis of the deposited data

How the results depend on the processing

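No direction of a reported fold change past the threshold was reversed, and the summed level of the family moved by less than the SD between libraries under every scaling. That SD was above the mean in pre-MCS-01 and post-MCS-01 and close to it in DSCG, so the criterion is weak. When 1 library was left out, the mean sum ran from 1921 to 7523 CPM in pre-MCS-01 and from 2971 to 7587 in DSCG. It ran from 1673 to 2962 CPM in blank and from 1.39 to 9.92 in post-MCS-01. Counts of members past the threshold did depend on the fit. For pre-MCS-01 against post-MCS-01, the count of 43 was 0 by limma-voom and 0 with the 3 libraries that lack long transcripts left out, and ranged from 0 to 49 when 1 library was left out. It was 43 with RLE or total-count scaling, 45 without the filter and 49 by DESeq2. For post-MCS-01 against DSCG, the count of 39 was 0 by limma-voom, 0 without those 3 libraries and 0 in the fit of 2 groups, and ranged from 0 to 48 when 1 library was left out. DESeq2 gave 50 there. For post-MCS-01 against blank, the count of 0 was 7 without the filter, 50 by DESeq2 and 47 in the fit of 2 groups, and ranged from 0 to 44 when 1 library was left out. For the joint test the count of 0 was 49 by DESeq2 and ranged from 0 to 46 (46 without DSCG library 1) when 1 library was left out. The other 3 pairs had 0 in every fit. With fewer libraries the counts fell in some fits and rose in others, and the cause was not tested.

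Over the named genes, which were picked for large fold changes or low p, and all settings, 880 results kept their direction and side of the threshold, 335 kept the direction but no longer passed, and 57 newly passed. The 335 all came from the pairs with calls, since the other pairs had no pass to lose. In pre-MCS-01 against post-MCS-01, 179 were unchanged, 176 no longer passed and 6 newly passed. In post-MCS-01 against DSCG these numbers were 162, 159 and 2. Over all 51 members the sign was less stable where no member passed. Without pre-MCS-01 library 2, 33 members were below 0 in pre-MCS-01 against blank, against 4 with all libraries, and 45 in pre-MCS-01 against DSCG, against 21. In DSCG against blank, 26 were below 0 by limma-voom and 1 by edgeR. No paired analysis was possible because the labels give no replicate numbers and no pairing of mice. A left-out library leaves 2 in its group. With 11 to 687 family counts per library, levels in post-MCS-01 are limited by counting, and blank library 3, at 3835042 gene counts, limits the rarest members.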

Other observations

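By position, the chromosome 16 cluster held 53.6% to 66.5% of family counts in pre-MCS-01, 59.8% to 66.7% in DSCG and 51.5% to 70.4% in blank. The chromosome 11 cluster held 31.1% to 39.6%, 30.9% to 36.9% and 27.5% to 45.8% of them in these groups, in the same order. The 5 subfamily 5 genes on chromosome 7 held 4.53% in pre-MCS-01 library 3 and 0.925% to 1.79% in the other 8 libraries outside post-MCS-01. In post-MCS-01 the chromosome 16 cluster held 53.0%, 45.5% and 64.5%, from 687, 11 and 110 family counts.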
